A study of Mus musculus with 16 samples.

Results

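The Mediator kinase module was followed at the RNA level through its 7 genes, Cdk8, Cdk19, Ccnc, Med12, Med12l, Med13 and Med13l, which were taken by name from the 50686 genes listed in the count tables. RNA was sequenced from 8 mouse lines transformed with BCR-ABL1p185, each grown for 48 h with 0.01% DMSO or with 1 µM Senexin B, an inhibitor of the CDK8 and CDK19 kinases, which gave 16 libraries in 4 groups of 4. Of the lines, 4 were Cdk8 Δ/Δ Vav-Cre (knockout lines below), in which Cre under the Vav promoter deletes a floxed part of Cdk8 in blood cells, and 4 were Cdk8 fl/fl (control lines below), which GEO's labels call wildtype. The study describes the lines as individually derived, and its methods describe transformation of mouse bone marrow cells. The p-values therefore measure the spread between lines. Libraries of a genotype with the same number were read as a single line. Marrow donors were 6 weeks old in a colony assay with the same oncogene, and whether this holds for these lines was not stated. Library totals ran from 13145876 to 18349425 counted reads, with a median of 15473665.

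Mediator is the large complex that carries signals from DNA-bound transcription factors to RNA polymerase II. Its kinase module binds it reversibly and holds 1 kinase, CDK8 or its paralogue CDK19, together with cyclin C (Ccnc), which the kinase needs to be active, MED12 or MED12L, which stimulates the kinase, and MED13 or MED13L, which tethers the module to the rest of Mediator. In leukaemia, the module is studied both as a kinase and as a scaffold.

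All 7 genes had counts in all 16 libraries. Cdk8 (ENSMUSG00000029635) lies on chromosome 5 of GRCm38 from 146231230 to 146302874, Cdk19 (ENSMUSG00000038481) on chromosome 10 from 40339564 to 40483818, and Ccnc (ENSMUSG00000028252) on chromosome 4 from 21727701 to 21759922. Med12 (ENSMUSG00000079487) lies on chromosome X from 101274030 to 101297465 and Med12l (ENSMUSG00000056476) on chromosome 3 from 59005825 to 59318682. Med13 (ENSMUSG00000034297) lies on chromosome 11 from 86267033 to 86357602, on the minus strand, and Med13l (ENSMUSG00000018076) on chromosome 5 from 118560679 to 118765438; the other 6 genes are on the plus strand. Raw counts per library ran from 566 to 1241 for Cdk8, 1643 to 4930 for Cdk19, 498 to 1063 for Ccnc, 1726 to 4210 for Med12, 20 to 173 for Med12l, 1335 to 4090 for Med13 and 1733 to 4508 for Med13l. Med12l therefore carries the largest counting error of the 7.

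Because 3 pairs of the module genes are paralogues, it was asked whether a read of 50 bases could be shared within a pair. The stretches of 60 coding bases that match best within each pair are printed here because they are where the paralogues are hardest to tell apart. Capitals mark the bases that differ between the paired genes. They come from the longest coding transcript of each gene in GENCODE M21 (GRCm38) and are written 5′ to 3′ on the strand of the gene.
Cdk8: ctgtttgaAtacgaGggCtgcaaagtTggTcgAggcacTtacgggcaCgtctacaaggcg
Cdk19: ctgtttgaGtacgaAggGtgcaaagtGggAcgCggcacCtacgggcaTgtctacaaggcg
Med12: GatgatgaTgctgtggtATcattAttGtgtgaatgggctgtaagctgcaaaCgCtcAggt
Med12l: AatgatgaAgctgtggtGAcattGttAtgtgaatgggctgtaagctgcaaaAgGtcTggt
Med13: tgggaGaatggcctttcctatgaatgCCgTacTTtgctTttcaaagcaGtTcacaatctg
Med13l: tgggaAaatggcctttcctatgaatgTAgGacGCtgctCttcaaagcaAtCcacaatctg

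The Cdk8 stretch lies in exon 1 at chr5:146231747-146231806 and that of Cdk19 in exon 1 at chr10:40349648-40349707. They match at 52 of 60 bases. The Med12 stretch lies in exon 11 at chrX:101278437-101278496 and that of Med12l in exon 11 at chr3:59082962-59083021, with 51 of 60 bases matching. For Med13 the stretch lies in exon 3 at chr11:86345952-86346011 (minus strand) and for Med13l in exon 3 at chr5:118671030-118671089, again with 51 of 60 matching. The longest exact coding match was 23 bases between Cdk8 and Cdk19, 24 between Med12 and Med12l and 20 between Med13 and Med13l, and no coding window of 50 bases was identical within any pair. Other genes shared more with the module. A processed pseudogene on chromosome 14, Gm7107, holds 522 of the 9934 distinct windows of 50 bases in Cdk8 transcripts, and reads from such windows align to more than 1 place and are not counted by default. Exons of Igsf10, which had 2 counts in all libraries together, cover 1948 of the 12763 exon bases of Med12l. The antisense gene Brip1os, with 35827 counts over the 16 libraries, shares 800 of the 10840 exon bases of Med13, and the counting did not use strand. Gm21986, with 254 counts, shares 749 of 7704 exon bases of Med12.

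B-lineage markers were checked against the cell type that the study describes for cells transformed in this way, a pro-B cell. Mean levels in the 4 groups, in CPM (counts per 1e+06 counted reads) after TMM scaling, were 1128 to 1248 for Pax5, 1013 to 1568 for Igll1 (a surrogate light chain gene) and 120 to 153 for Spn, which encodes CD43. Of the 3 mature B cell markers, Ighd had group means of 17.2 to 31.5 CPM and Cr2 of 10.8 to 21.6 CPM, while Fcer2a had 25 counts in all libraries together. Their summed level ran from 12.8 to 73.0 CPM. Of the 6 myeloid markers, Elane was at 0 counts in every library and Lyz2 was the most abundant, from 0.164 to 24.6 CPM, and the summed level of the 6 ran from 0.441 to 24.8 CPM, against at least 786 CPM for Pax5 alone in every library. The highest myeloid sum was in the knockout DMSO library of line 1. The 4 T cell markers summed to at most 0.139 CPM, the 4 erythroid markers to at most 0.982 CPM and the 3 megakaryocyte markers to at most 2.45 CPM. The part of other cell types in the module's values was not tested.

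Per length, the kinase Cdk19 was the most abundant module gene and Med12l the least. Levels between genes were compared as RPKM, the TMM-scaled CPM divided by the exon length of the gene model in kilobases. Over the 16 libraries the mean level was 29.1 ± 6.26 RPKM (SD, n = 16) for Cdk19, 23.5 ± 6.89 for Med12, 20.1 ± 4.25 for Med13, 14.3 ± 2.87 for Med13l, 9.43 ± 1.34 for Ccnc, 5.62 ± 1.37 for Cdk8 and 0.421 ± 0.213 for Med12l. Cdk19 was above 86.1% of the 14164 genes expressed in these libraries, Cdk8 above 49.9% and Med12l above 9.22%. Neighbours in this order were not cleanly separated. Cdk19 was above Med12 in 12 of 16 libraries, Med12 above Med13 in 10 and Med13 above Med13l in 15, and their ranges overlapped. Ccnc was above Cdk8 in 16 of 16 libraries, although its lowest value lay under the highest of Cdk8. The range of Med12l alone was apart from that of its neighbour.

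The place of Cdk8 in this order rests on its length. The exon length in the files, 9832 bases for Cdk8, includes transcripts annotated as retained introns, whereas its longest coding transcript in GENCODE M21 has 2973 bases. With the longest coding transcript as the length, an alternative chosen after the data were seen, the mean level of Cdk8 was 18.6 RPKM, above Ccnc at 13.8 RPKM and next to Med13 at 20.7 RPKM, and Cdk19 had the highest mean over all libraries at 29.3 RPKM. By that length Cdk19 was above Med12 in 10 of 16 libraries, and in control lines with Senexin B the mean of Med12, 31.97 RPKM, was above that of Cdk19, 29.4 RPKM. The ratio of Cdk19 to Cdk8 had a median of 5.16 over the 16 libraries (lowest 3.71, highest 7.27) with the exon length and of 1.57 (lowest 1.13, highest 2.21) with the longest coding transcript. Cdk19 was the more abundant of the pair in every library by both lengths. Med12 exceeded Med12l by a median of 64.7 times with the exon length and 61.9 times with the longest coding transcript. For the MED13 pair the choice turned the order: the median ratio of Med13 to Med13l was 1.35 with the exon length and 0.835 with the longest coding transcript.

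**Figure D1:**
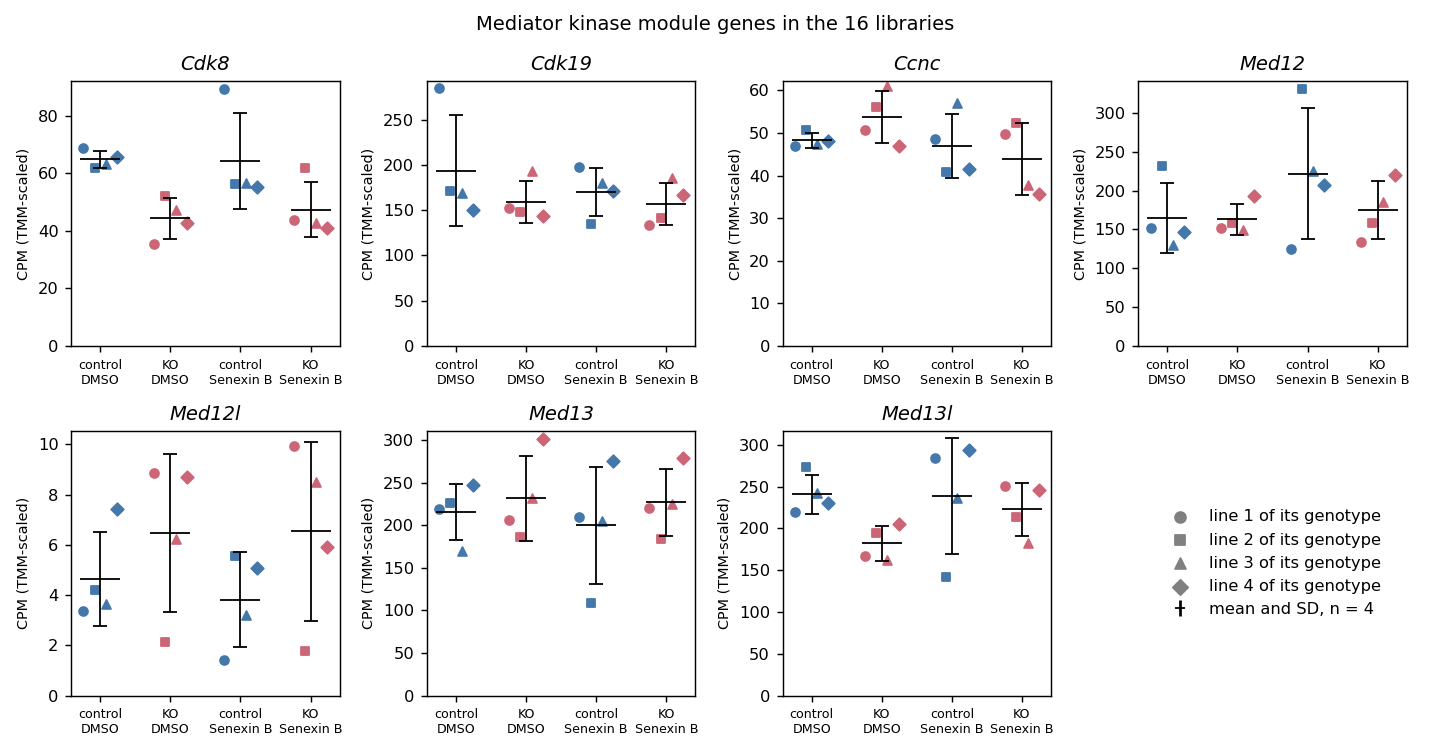
Levels of the 7 module genes in the 16 libraries, in TMM-scaled CPM (y axes start at 0 and differ between panels), by genotype (KO, knockout) and treatment, with 4 lines a group, a marker shape for each line, and bars for mean and SD. In DMSO the 4 Cdk8 values of the knockout lines, 35.3 to 52.1 CPM, lie below the 4 control values, 61.8 to 68.7 CPM.

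To ask what loss of Cdk8 does to the RNA of the module, knockout and control lines were compared in DMSO. None of the 7 genes passed an adjusted p under 0.05 with a fold change over 2 (edgeR's quasi-likelihood test with Benjamini-Hochberg adjustment over 13174 genes; 0.00759% of all genes tested passed, which was the single gene Sva, named after its values were seen). DESeq2 called none of the 7 genes in this or any other comparison. At an unadjusted p under 0.05 there were 2 of 7, Cdk8 and Med13l, against 5.32% of all genes. Both were lower in the knockout lines, a direction in which 2.94% of genes met that limit. Without control line 1 both still met it, but so did more of all genes, 687 higher and 733 lower of 13420. The same 2 genes were those whose groups did not overlap, as was the case for 3.14% of all genes, with 1.66% of all genes apart in the lower direction. The median log2 fold change of the 7 genes was -0.01 and that of all genes was 0.00.

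Cdk8 itself was read first, as the targeted gene. In ascending order it stood at 35.3, 42.8, 47.1 and 52.1 CPM in the knockout lines in DMSO, and at 61.8, 63.3, 65.8 and 68.7 CPM in the control lines. Every knockout line was below every control line. The mean in the former was 68.3% of that in the latter, with a log2 fold change of -0.55 (SE 0.14, 95% interval -0.86 to -0.23) and an unadjusted p of 0.00368, adjusted p = 0.897 by edgeR. An exact two-sided permutation test of log2(CPM + 1) gave p = 0.0286, the smallest that 4 against 4 allows, and 0.343 after Benjamini-Hochberg adjustment over the 12 exact tests made between the genotypes. Without control line 1 or 4 the exact permutation p was 0.0571, with differences of -0.53 and -0.55 and the groups still apart. The counts are summed over all exons of Cdk8, so they include exons outside the deleted part and do not check the deletion. Less RNA per cell and fewer cells with RNA cannot be told apart in bulk libraries.

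Cdk19, the paralogue that can take the place of CDK8 in the module, did not pass the test in the knockout lines, where its mean in DMSO was 82.2% of that in control lines. It was at 144, 148, 153 and 193 CPM in knockout lines and at 150, 169, 171 and 285 CPM in control lines. The groups overlapped, and control line 1 stood above all others. The log2 fold change was -0.28 (SE 0.21, unadjusted p = 0.223, adjusted p = 0.913 by edgeR), and its 95% interval of -0.77 to 0.21 corresponds to between 0.588 and 1.15 times the control level. Without control line 1 in DMSO the difference was close to zero, at -0.04. The exact permutation test of the Cdk19 level gave p = 0.371 in DMSO.

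The kinase pair was also read as a sum and as a share. Summed RPKM of Cdk8 and Cdk19 in DMSO was 31.7 ± 4.09 (SD, n = 4) in knockout and 39.7 ± 10.8 in control lines, with overlapping groups (exact two-sided permutation test of the log2 sum, difference -0.30, p = 0.171). With the longest coding transcript as length the difference was -0.37 (exact permutation p = 0.0571), and without control line 1 it was -0.12 with the exon length. The share of Cdk8 in the sum by exon length was 14.3% ± 2.40 (SD, n = 4) against 17.3% ± 3.43 (exact permutation p = 0.171). That difference of -2.99 percentage points was -4.57 without control line 1 (exact permutation p = 0.0571) and -1.85 without control line 4 (p = 0.314). By the longest coding transcript the shares were 35.2% ± 4.43 and 40.4% ± 5.99, with the same p. Adjusted over the 12 exact tests, no p was under 0.343. The smallest p that 4 against 4 allows, 0.0286, limits what this adjustment can show for a single test.

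Med13l was the other gene whose groups were apart. This paralogue of MED13 serves as the link between kinase module and core Mediator. Its level in DMSO was 162, 167, 194 and 205 CPM in the knockout lines and 219, 230, 242 and 273 CPM in the control lines, so that all lines of one genotype were below all of the other. The log2 fold change was -0.40 (SE 0.12, 95% interval -0.69 to -0.12, unadjusted p = 0.0113, adjusted p = 0.897 by edgeR). With any 1 library left out, it lay between -0.47 and -0.35. With all 16 libraries in 1 fit it was -0.40 (unadjusted p = 0.0539), and with the libraries of each line summed it was -0.25 (unadjusted p = 0.0681). Med13 showed no such split, with 186 to 301 CPM in knockout and 169 to 247 CPM in control lines and a log2 fold change of 0.11 (SE 0.18). The share of Med13l in the sum of both, per length, was 35.97% ± 4.58 (SD, n = 4) against 44.2% ± 4.76, with overlapping groups and an exact permutation p of 0.0857. By the longest coding transcript it was 47.5% ± 4.89 against 56.0% ± 4.73, with the same p.

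The remaining module genes overlapped between genotypes in DMSO. Ccnc, the cyclin, was at 53.7 ± 6.10 CPM (SD, n = 4) in knockout and 48.3 ± 1.73 CPM in control lines, a log2 fold change of 0.16 (SE 0.11) that was 0.0874 without knockout line 3. Its 4 control values lay close together, from 46.9 to 50.8 CPM. Med12 was at 163 ± 19.9 and 165 ± 45.4 CPM (log2 fold change -0.01, SE 0.19). Med12l, whose counts are low, was at 6.48 ± 3.14 and 4.66 ± 1.88 CPM, with a log2 fold change of 0.48 (SE 0.47) and a 95% interval of -0.59 to 1.55. Without knockout line 1 or 4 it was 0.29 or 0.30, and without knockout line 2 or control line 4 it was 0.76 or 0.78. The share of Med12l in the MED12 pair was 2.33% ± 1.09 against 1.76% ± 0.832 (exact permutation p = 0.457). That difference of 0.570 percentage points was 0.215 without knockout line 1 and 1.08 without knockout line 2.

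**Figure D2:**
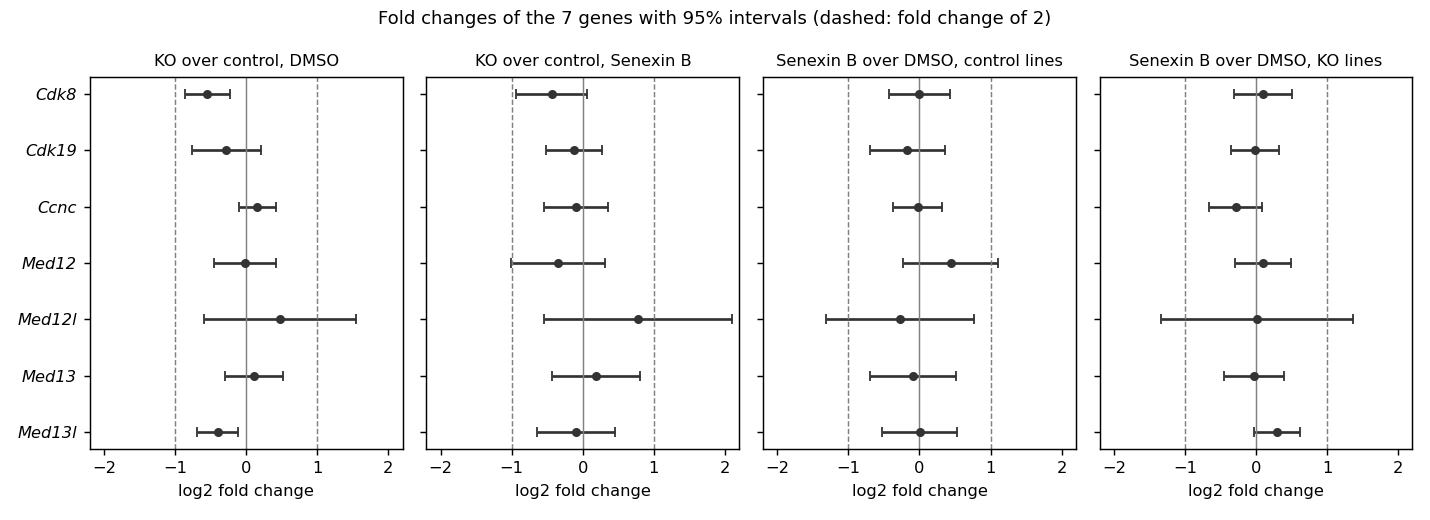
Log2 fold changes (x axis) of the 7 module genes (y axis) in the 4 comparisons (KO, knockout), as points with 95% intervals from the edgeR fits of 8 libraries each; dashed lines mark a fold change of 2. In DMSO the intervals of Cdk8, -0.86 to -0.23, and of Med13l, -0.69 to -0.12, do not reach 0, and Med12l has the widest interval in each panel.

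With Senexin B in both genotypes, no module gene passed the limits (0% of 13010 genes did) and none had an unadjusted p under 0.05, against 1.55% of all genes. No module gene had groups apart, against 0.999% of all genes. Cdk8 stood at 41.2, 42.9, 43.9 and 61.7 CPM in knockout lines and at 55.2, 56.3, 56.8 and 89.4 CPM in control lines. The overlap came from line 2 of the knockout group, which was above 3 of the 4 controls. The log2 fold change was -0.44 (SE 0.22, unadjusted p = 0.0783, adjusted p = 1.00 by edgeR), and the exact permutation test gave p = 0.114. Without that library the groups were apart and the exact permutation p was 0.0286. Leaving out any other library gave an exact permutation p of up to 0.257, and without control line 1 the difference was -0.26 (p = 0.143) in place of -0.42.

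Cdk19 with Senexin B was at 157 ± 23.5 CPM (SD, n = 4) in knockout and 171 ± 26.4 CPM in control lines, a log2 fold change of -0.12 (SE 0.17) with a 95% interval of -0.51 to 0.28, or 0.700 to 1.21 times the control level. With 1 library left out it ran from -0.22 (without control line 2) to -0.0419 (without knockout line 1). Exact permutation tests gave p = 0.486 for the Cdk19 level, 0.286 for the summed kinases and 0.314 for the share of Cdk8, which was 15.4% ± 3.87 against 18.3% ± 2.72. Med13l, apart in DMSO, had a log2 fold change of -0.10 (SE 0.24) here, with 182 to 251 CPM against 142 to 294 CPM. The other log2 fold changes were -0.10 (SE 0.20) for Ccnc, -0.35 (SE 0.29) for Med12, 0.78 (SE 0.58) for Med12l and 0.19 (SE 0.27) for Med13. The share of Med12l was 2.32% ± 1.56 against 1.00% ± 0.328 (exact permutation p = 0.200), and that of Med13l 41.0% ± 4.35 against 46.0% ± 2.70 (p = 0.143).

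**Figure D3:**
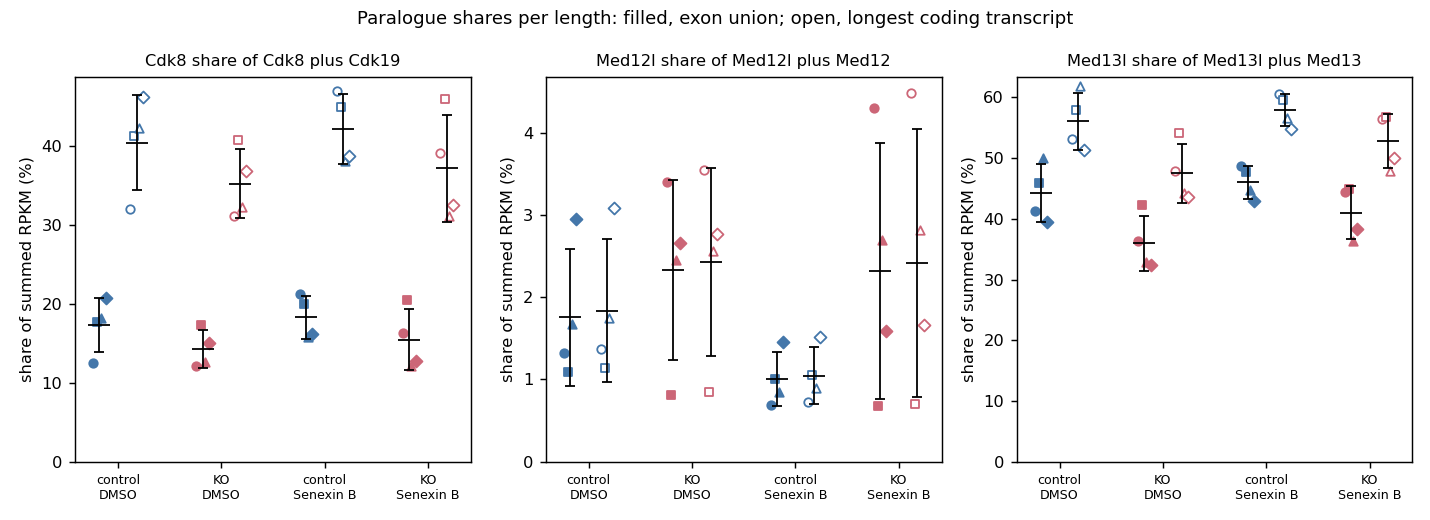
Share of 1 paralogue in the summed RPKM of its pair (percent, y axes start at 0 and differ between panels) in each of the 16 libraries, with bars for mean and SD of 4 lines, filled symbols for the exon length and open symbols for the longest coding transcript. The 4 groups overlap for Cdk8, whose share in control lines in DMSO is 17.3% by the first length and 40.4% by the second.

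To ask whether blocking the kinase alters the RNA of its own module, libraries with Senexin B were compared with DMSO libraries within each genotype. No module gene passed the limits in the control lines (0% of 12989 genes did) or in the knockout lines (0% of 13285 genes did), and none had an unadjusted p under 0.05, against 3.80% and 1.83% of all genes. In the control lines the log2 fold change was 0.00 for Cdk8 (SE 0.19), -0.17 for Cdk19 (SE 0.23), -0.03 for Ccnc (SE 0.15), -0.28 for Med12l (SE 0.46), -0.10 for Med13 (SE 0.27) and 0.00 for Med13l (SE 0.23). Med12 had the largest, 0.44 (SE 0.30, unadjusted p = 0.175 by edgeR, in this fit that does not pair the libraries of a line). Its control values were 129, 147, 152 and 231 CPM in DMSO and 124, 207, 225 and 330 CPM with Senexin B. The groups overlapped. Without the Senexin B library of control line 2 the log2 fold change was 0.18, and without that of control line 1 it was 0.63 (unadjusted p = 0.0345, adjusted p = 0.578 by edgeR).

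In the knockout lines the log2 fold change with Senexin B was 0.10 for Cdk8 (SE 0.18), -0.02 for Cdk19 (SE 0.15), -0.29 for Ccnc (SE 0.16), 0.10 for Med12 (SE 0.17), 0.02 for Med12l (SE 0.59), -0.03 for Med13 (SE 0.19) and 0.29 for Med13l (SE 0.14). Since the libraries of a line resemble each other, the comparison was also fitted with the replicate number as a block. Med13l then had an unadjusted p of 0.0257 and Ccnc of 0.0534, with adjusted p of 0.404 and 0.494 by edgeR, while 10.3% of all genes had an unadjusted p under 0.05. In the control lines with the block, Med12 was at 0.39 (SE 0.19, unadjusted p = 0.0754, adjusted p = 0.543 by edgeR). No module gene had an unadjusted p under 0.05 there, against 10.3% of all genes. Under the block no module gene passed the limits, whereas 45 of all genes did in the control lines (0.346%) and 7 in the knockout lines (0.0527%).

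Line by line, 2 of 7 module genes differed in the same direction in 4 of 4 knockout lines, as did 19.2% of all genes (8.89% higher and 10.3% lower), and 0 of 7 did in the control lines, where 17.8% of all genes did. Med13l was higher with Senexin B by 0.58, 0.14, 0.17 and 0.26 (log2 of CPM + 1) in knockout lines 1 to 4. Ccnc was lower, with differences of -0.03, -0.10, -0.67 and -0.39. In control lines 1 to 4 the Med13l differences were 0.38, -0.94, -0.04 and 0.35 and those of Ccnc 0.05, -0.31, 0.26 and -0.20, so that these lines went both ways. Control line 2 had the lowest Med13 value of all libraries with Senexin B, 109 CPM after 226 CPM in DMSO, as well as the lowest Med13l value with Senexin B, 142 CPM after 273 CPM. The median absolute log2 difference between DMSO and Senexin B over 14164 genes was 0.305 in that line and 0.172 to 0.274 in the other 7.

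**Figure D4:**
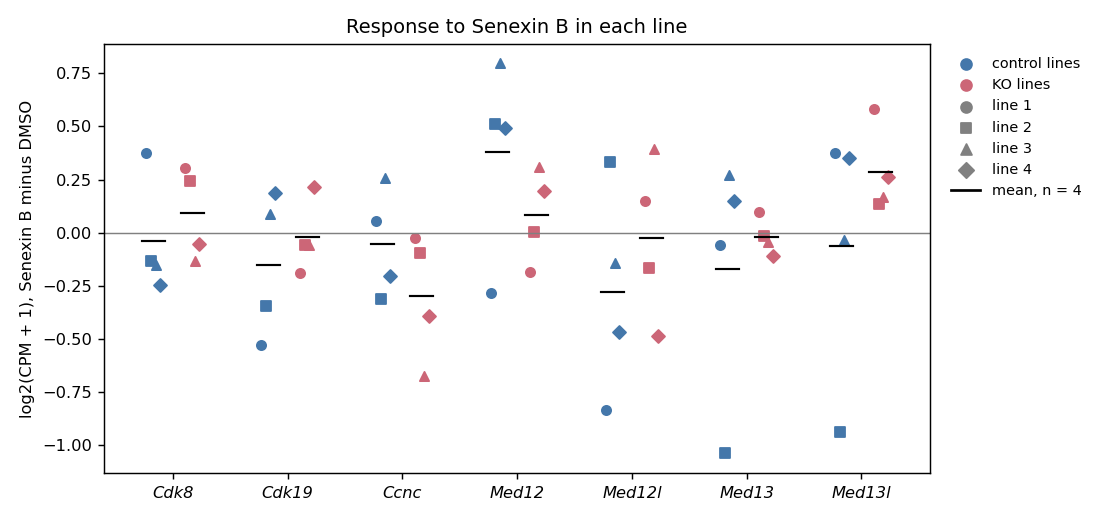
Difference in log2(CPM + 1) between Senexin B and DMSO for each module gene (x axis) in each of the 8 lines, with a marker shape for each line and black bars for the mean of 4 lines. Med13l lies above 0 in the 4 knockout lines and Ccnc below 0, while the control lines fall on both sides of 0 for every gene.

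The responses were compared between genotypes. Exact two-sided permutation tests of the 4 differences against 4 gave p from 0.257 for Med12 to 0.914 for Med13 over the 7 genes. The largest difference, knockout minus control, was 0.35 for Med13l (0.29 ± 0.20 in knockout lines and -0.06 ± 0.62 in control lines, SD, n = 4; exact permutation p = 0.400). Without control line 2 it was 0.0572 (exact permutation p = 0.771). An edgeR interaction term over all 16 libraries, fitted without the replicate block, called none of the 7 genes. None had an unadjusted p under 0.05, against 0.473% of 14164 genes. With the replicate block none of the 7 met that limit either, while 230 of the 14164 genes met it as higher and 229 as lower. For Cdk19 the interaction was 0.16 on the log2 scale (SE 0.28, 95% interval -0.43 to 0.76).

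Differences between lines were at least as large as those between treatments for most of the module. The mean absolute log2 difference between lines of 1 group was 0.82 for Med12l, 0.43 for Med12, 0.41 for Med13, 0.31 for Cdk19 and 0.25 for Cdk8, and that between the 2 libraries of a line was 0.37, 0.35, 0.22, 0.21 and 0.21 in the same order. Ccnc and Med13l went the other way, with 0.22 between lines and 0.25 within a line for Ccnc and 0.30 and 0.36 for Med13l. Ccnc was the steadiest gene, with a coefficient of variation of 14.2% over the 16 libraries, and Med12l the least steady, with 50.6%. The median of that coefficient over 14164 genes was 28.7%. For the mean absolute log2 difference the median of all genes was 0.38 between lines and 0.27 within a line. The median over all genes was thus also larger between lines. Med12l was lowest in line 2 of the knockout lines, at 2.13 CPM in DMSO and 1.79 CPM with Senexin B, against 5.92 to 9.94 CPM in the other 3 lines.

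Since Med12 is X-linked, the sex-linked genes were read beside it. Xist, transcribed from an inactive X chromosome, was at 2754 CPM in control line 2 and 5091 CPM in knockout line 2 in DMSO, at 154 CPM in knockout line 1, and at most at 1.56 CPM in the other 5 lines. The Y-linked gene Ddx3y was at 0 or close to 0 in the line 2 of each genotype and in knockout line 3, and at 24.03 to 47.55 CPM in the other 5 lines in DMSO. Kdm5d and Uty followed the same split, whereas Eif2s3y was also low in control line 1, at 0.0578 CPM, and in knockout line 4, at 1.92 CPM, and lay between 33.5 and 52.9 CPM in the other 3 of those lines. Med12 was highest in control line 2 both in DMSO, 231 CPM, and with Senexin B, 330 CPM, while knockout line 2 had 158 and 159 CPM. Whether sex chromosomes bear on the Med12 level was not tested.

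Other parts of the transcription machinery were read from fixed lists. Of the 26 core Mediator genes, 25 were tested and none passed the limits in any comparison. In DMSO 1 of 25, Med22, a subunit of the head of Mediator, had an unadjusted p under 0.05, with 39.5 ± 3.41 CPM (SD, n = 4) in knockout and 47.9 ± 4.25 CPM in control lines, a log2 fold change of -0.28 (SE 0.12, adjusted p = 0.897 by edgeR). Its groups did not overlap. Over all genes 5.32% met that limit and 3.14% had groups apart. Next were Med6 at 0.58 (SE 0.30) and Med17 at 0.18 (SE 0.11). The median log2 fold change of the list was -0.02 in DMSO and 0.01 with Senexin B, beside 0.00 and 0.00 over all genes. For Senexin B it was 0.06 in control lines, where Med22 (-0.33, SE 0.16) and Med19 (-0.18, SE 0.17) had the smallest p, and -0.04 in knockout lines, where Med21 (-0.21, SE 0.11) and Med14 (-0.20, SE 0.13) had. The groups of Med22 in control lines and of Med21 in knockout lines did not overlap, as was the case for 2.16% and 1.66% of all genes. In the interaction fit without the replicate block, 1 of 25 core genes, Med22 again, had an unadjusted p under 0.05, against 0.473% of all genes. Its value was 0.45 (SE 0.20, unadjusted p = 0.0442, adjusted p = 1.00 by edgeR). With the block a larger share of all genes met that limit, 230 higher and 229 lower of 14164. With Senexin B in both genotypes, Med21 (-0.33, SE 0.29) and Med25 (-0.17, SE 0.17) led.

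All 9 transcription kinases and cyclins were tested and none passed the limits. Cdk13, a kinase of the RNA polymerase II tail, was the 1 of 9 with an unadjusted p under 0.05 in DMSO, at 133 ± 37.0 CPM (SD, n = 4) in knockout and 187 ± 8.91 CPM in control lines (log2 fold change -0.49, SE 0.19, adjusted p = 0.897 by edgeR), and its groups did not overlap. Over all genes 5.32% met the first limit and 3.14% had groups apart. Mnat1, of the CDK7 complex, was at 0.44 (SE 0.23) and Ccnk, the cyclin partner of CDK12 and CDK13, at 0.34 (SE 0.19). With Senexin B in both genotypes, Ccnk was at 0.44 (SE 0.22) and Ccnt2, a cyclin of CDK9, at 0.22 (SE 0.14). In the Senexin B comparisons the smallest p belonged to Cdk12 (-0.11, SE 0.18) and Ccnt2 (0.09, SE 0.16) in control lines and to Ccnt2 (0.08, SE 0.14) and Cdk7 (-0.13, SE 0.31) in knockout lines. The list's median log2 fold change was 0.02 in DMSO, -0.02 with Senexin B in both genotypes, -0.05 for Senexin B in control lines and 0.01 in knockout lines.

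The 4 genes of the SCF ligase with Fbxw7, which is known to mark MED13 for degradation, had no unadjusted p under 0.05 in any comparison, a limit that 5.32% of all genes met in DMSO, 1.55% between genotypes with Senexin B, 3.80% and 1.83% for Senexin B in control and knockout lines, and 0.473% in the interaction. Their log2 fold changes in DMSO ran from -0.08 for Cul1 to 0.22 for Skp1a, with Rbx1 at 0.11, and their median was 0.11. With Senexin B in both genotypes the median was -0.10, with Skp1a at -0.22 (SE 0.20) and Rbx1 at -0.21 (SE 0.23). For Senexin B it was 0.05 in control lines, led by Rbx1 (0.27, SE 0.19) and Skp1a (0.13, SE 0.21), and -0.03 in knockout lines, led by Skp1a (-0.30, SE 0.14) and Cul1 (0.04, SE 0.12).

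The genes whose levels ran most alike with the kinases across the libraries were found among the 8745 genes with a mean of at least 10 CPM. Over 16 libraries, which share lines in pairs, Pearson's r of log2(CPM + 1) with Cdk8 was highest for Pcgf5 (0.85), Stk35 (0.83) and Abcc1 (0.82). With Cdk19 it was highest for Sec63 (0.87), Eif4ebp2 (0.86) and Epb41l2 (0.83). For the other members the nearest gene was Tmem65 for Ccnc (0.85), Snap29 for Med12 (0.97), Fhl3 for Med12l (0.93), Eif4g2 for Med13 (0.94) and Gpat4 for Med13l (0.87). These values describe the ranking and no test was made of them. After the means of the 4 groups were taken off, r with Cdk8 was 0.70 for Pcgf5, 0.91 for Stk35 and 0.84 for Abcc1. Within the module, r was highest between Med13 and Med13l (0.49), was 0.37 between Cdk8 and Cdk19 and was lowest between Cdk8 and Med12l (-0.74). Module pairs were set by name, whereas the nearest genes were picked as the highest of 8745, so the r of the former cannot be judged against those of the latter.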

How the data were processed

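Per the labels and the study's methods, SENSE mRNA libraries were sequenced as single 50-base reads, trimmed with Trimmomatic, mapped with STAR and counted per gene with featureCounts 1.5.1 on GENCODE M13 (GRCm38). The authors deposited the raw counts, with no normalization and no use of strand. A symbol was matched to 50376 gene identifiers, leaving 310. Counts were scaled by TMM, filtered with filterByExpr and tested with edgeR 4.0.16 (R 4.3.3; robust quasi-likelihood test, Benjamini-Hochberg over all genes tested) on the 8 libraries compared, or on all 16 for the interaction. Limits followed the study's methods (adjusted p under 0.05, more than a 2-fold change). Standard errors came from the log2 fold change and the F statistic. Single values and shares were compared by exact two-sided permutation tests. CPM and RPKM used TMM library sizes; log2 levels used a pseudocount of 1.

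Members and gene lists were chosen with earlier results of these data known. Named are the 7 members, the genes most like them by r, and the listed genes with the smallest p in each comparison (up to 3 for genotype in DMSO, up to 2 otherwise); Gm7107 and the overlapping genes were named after their values were seen. DMSO and Senexin B libraries with the same number come from 1 line: after group means were removed, their mean correlation over 14164 genes was 0.716 in control and 0.832 in knockout lines, and that of other pairs -0.237 and -0.274. Alternatives were DESeq2 1.42.0, RLE size factors, library totals alone, other filters and limits, a pseudocount of 0.1, all libraries in 1 fit, the replicate block, summed libraries of a line, other lengths and leaving out each library. In simulated data for the genotype comparison in DMSO, with 13174 genes, 164 of 200 genes changed by 2 on the log2 scale were called with 7 unchanged genes. Changes as small as those of the module genes were not simulated, so the recovery does not apply to them. All 120 pairs of libraries differed (chi-square per gene of at least 27.7). Exon overlaps came from the GENCODE M13 gene models used for counting. Shared windows and sequences came from GENCODE M21 (GRCm38). A cell marker and a gene list that were computed are not reported here. Figures were drawn with matplotlib 3.10.9.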

Additional observations from a re-analysis of the deposited data

Results flagged for a closer look

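In 3 of 28 groups of 4 libraries (7 genes, 4 groups), 1 library lay far from the other 3 by Dixon's test at the 95% level, which chance alone marks in about 1 of 20 groups. Cdk8 was 89.4 CPM in control line 1 with Senexin B, against 55.2 to 56.8 CPM in the other 3 control lines. Without that library the log2 fold change of Cdk8 with Senexin B in control lines was -0.20 in place of 0.00, and that between genotypes with Senexin B was -0.24 in place of -0.44. Cdk8 was 61.7 CPM in knockout line 2 with Senexin B, against 41.2 to 43.9 CPM in the other 3 lines. Without it the log2 fold change between genotypes with Senexin B was -0.59. Cdk19 was 285 CPM in control line 1 in DMSO, against 150 to 171 CPM in the other 3, and without it the log2 fold change of Cdk19 between genotypes in DMSO was -0.04 in place of -0.28. The header of that DMSO library names another folder than those of the other 15 count tables, while the gene models are identical in all 16; its part in the Cdk19 value was not tested.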

How the results depend on the processing

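No module gene passed the limits in any comparison under any setting, and of the module's log2 fold changes under the alternatives 574 kept their sign and 49 reversed. The 574 include the settings that alter only the limits, where the fold change is that of the main fit and cannot reverse. The number of all genes passing was less stable. For genotype in DMSO it was 1, against 32 with DESeq2 (Cdk8 then had an adjusted p of 0.0958), 0 with at least 10 counts in every library, 0 with the replicate block and 0 without any 1 library. Block numbers do not pair lines between genotypes, so that 0 says little about the genotype result. For genotype with Senexin B it was 0, against 10 with DESeq2 and 1 each with an adjusted p under 0.1, with no filter, with all 16 libraries in 1 fit and with the libraries of a line summed. For Senexin B in control lines it was 0, against 19 with DESeq2, 3 with no filter and 45 with the replicate block. For Senexin B in knockout lines it was 0, against 7 with the replicate block. The DESeq2 fits also tested more genes, 27306 against 13174 for genotype in DMSO and likewise in the other comparisons. Their counts therefore reflect the set of genes as well as the method.

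The replicate block, which pairs the libraries of a line in the Senexin B comparisons and the interaction, changed no call on a module gene. It reversed Med12 for genotype in DMSO (0.0155, from -0.0137), where numbers do not pair lines, and Med12l for Senexin B in knockout lines (-0.0215, from 0.0157). For Senexin B in control lines, Cdk8 and Med13l stood at 0.00 and turned to -0.0304 and -0.0463 with the block, -0.0186 and -0.0202 with DESeq2, -0.0121 and -0.0108 with RLE size factors, -0.0260 and -0.0296 with no filter and -0.0110 and -0.0123 with all 16 libraries in 1 fit. With the libraries of a line summed, Ccnc for genotype with Senexin B was 0.0255, from -0.0971. The cause of these shifts was not tested.

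Leaving out 1 library at a time, the Cdk8 difference of the exact test ran from -0.63 to -0.45 in DMSO (p 0.0286 to 0.0571) and from -0.55 to -0.26 with Senexin B. The Med12l share difference with Senexin B ran from 0.652 to 1.86 percentage points, with p = 0.0286 without knockout line 2. The Cdk8 share difference with Senexin B ran from -4.53 to -1.72 percentage points (p 0.171 to 0.629). The genotype difference in the Med13 response ran from -0.14 to 0.30. That in the Cdk8 response ran from 0.0590 to 0.27, in the Cdk19 response from 0.0018 to 0.24, in the Ccnc response from -0.34 to -0.12, in the Med12 response from -0.52 to -0.16 and in the Med12l response from 0.0667 to 0.46. Without changing sign, genotype with Senexin B ran from -0.55 to -0.0888 for Med12 and from 0.51 to 1.09 for Med12l, the summed kinases with Senexin B from -0.27 to -0.0742, and the interaction from -0.35 to -0.15 for Ccnc, -0.54 to -0.0739 for Med12 and 0.12 to 0.42 for Med13l. Log2 fold changes that changed sign ran as follows. For genotype in DMSO, Med12 ran from -0.12 to 0.18 and Med13 from -0.0493 to 0.19. For genotype with Senexin B, Ccnc ran from -0.19 to 0.0176, Med13 from -0.0156 to 0.38 and Med13l from -0.28 to 0.0150. For Senexin B in control lines, Cdk8 ran from -0.20 to 0.0555, Cdk19 from -0.28 to 0.0659, Ccnc from -0.14 to 0.0313, Med12l from -0.51 to 0.0382, Med13 from -0.30 to 0.10 and Med13l from -0.12 to 0.18. For Senexin B in knockout lines, Cdk8 ran from -0.0558 to 0.19, Cdk19 from -0.11 to 0.0940, Med12 from -0.0336 to 0.20, Med12l from -0.28 to 0.33 and Med13 from -0.14 to 0.13. In the interaction, Cdk8 ran from -0.0448 to 0.31, Cdk19 from -0.0830 to 0.27, Med12l from -0.0173 to 0.61 and Med13 from -0.12 to 0.27. With 20 to 173 counts per library, depth limits Med12l most.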
